A study of Rattus norvegicus with 25 samples.

Results

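Perineuronal nets are lattices of extracellular matrix that wrap the soma and proximal dendrites of certain neurons, above all fast-spiking interneurons that contain parvalbumin. A hyaluronan backbone carries chondroitin sulfate proteoglycans of the lectican family (aggrecan, brevican, neurocan and versican), link proteins of the Hapln family fix the lecticans to hyaluronan, and tenascin-R cross-links the lecticans. Proteases such as Mmp9 and Adamts4 cut this matrix, and Timp1 inhibits matrix metalloproteinases. In the amygdala and hippocampus these nets are known for their part in the persistence of fear memory and in the closing of developmental plasticity.

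The genes described were 10: Acan, Bcan, Ncan and Vcan (lecticans), Hapln1 and Hapln4 (link proteins), Tnr (tenascin-R), Mmp9 and Adamts4 (proteases) and Timp1 (inhibitor). They were chosen by gene name in the deposited tables, ignoring case, and matched 12 of 26312 gene models. Ncan and Hapln4 had 2 models each, which were summed. All 10 passed the filter on low counts in both regions, so that each was tested, among 15228 BLA genes and 14078 DG genes.

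Libraries came from adult male wild-type Sprague-Dawley rats, from punches of the left basolateral amygdala (BLA) and the left dorsal dentate gyrus (DG) taken on day 9. Stress-exposed rats had been immobilized for 3 h in the presence of predator scent, and controls stayed in the home cage with a cage change and no stressor. Among stress-exposed rats only the behavioral extremes were sequenced: stress-low animals had composite anxiety-like scores of 0 to 2 and stress-high animals scores of 13 to 15, whereas controls scored 0 to 6. The BLA set held 7 control, 3 stress-low and 3 stress-high libraries, and the DG set held 6, 3 and 3.

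Animal 2 among the BLA controls and animal 35 among the DG controls stood apart on the first principal component, and both libraries were left out of the main fits. The BLA library of animal 35 carries a control library name but a stress entry in its treatment field, and it was kept as a control, with values without it given beside the results. The expected counts of a library summed to between 12709493 and 22801247 (BLA) or between 11656439 and 19477932 (DG). C1ql2, a granule cell gene, averaged 344 TPM (a level scaled for gene length and library size) in the DG and 2.78 TPM in the BLA, and Prox1 averaged 75.6 and 2.52 TPM. Dsp averaged 5.91 TPM in the DG and 0.205 in the BLA, but Calb1, also listed for granule cells, averaged 106 TPM in the DG and 134 in the BLA. Among genes listed as BLA markers, Etv1 averaged 107 TPM in the BLA and 9.76 in the DG, and Lmo3 averaged 177 and 125. The others were higher in the DG: Rspo2 averaged 12.0 TPM in the BLA and 18.6 in the DG, and Neurod6 averaged 111 and 151. All stress-high animals had numbers up to 20 and all stress-low animals numbers above 20, so that animal number and behavioral group cannot be told apart in the comparison of the stress groups. Punches hold mixed cells, and in them fewer cells of a type and less RNA per cell cannot be told apart.

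The promoters of Ncan and Timp1 are shown because these were the members with an unadjusted p under 0.05 in both regions. They are RefSeq sequences of the GRCr8 build, from 250 bases before to 50 bases after the gene start, and the reads were aligned to another build. Capitals mark matches to the GC box GGGCGG, to the TATA box TATAAA and to TGAGTAA, on either strand.
Ncan: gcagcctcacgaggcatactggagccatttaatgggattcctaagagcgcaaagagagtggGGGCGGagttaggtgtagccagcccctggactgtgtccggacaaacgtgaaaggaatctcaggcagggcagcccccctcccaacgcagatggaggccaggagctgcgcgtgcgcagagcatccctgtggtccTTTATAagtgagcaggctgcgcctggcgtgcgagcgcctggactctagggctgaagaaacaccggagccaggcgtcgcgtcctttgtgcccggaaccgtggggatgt
Timp1: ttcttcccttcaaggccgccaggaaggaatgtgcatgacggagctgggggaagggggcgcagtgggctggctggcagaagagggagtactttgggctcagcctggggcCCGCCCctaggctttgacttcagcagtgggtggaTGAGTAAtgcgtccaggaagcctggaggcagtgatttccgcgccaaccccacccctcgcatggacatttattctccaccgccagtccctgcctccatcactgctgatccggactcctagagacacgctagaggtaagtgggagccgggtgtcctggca
The Ncan sequence lies at chr16:19335657-19335956 on the plus strand and holds a GC box 189 bases and a TATA box (as its reverse complement) 57 bases before the start. The Timp1 sequence lies at chrX:3771073-3771372 on the minus strand and holds a GC box (as its reverse complement) 142 bases and TGAGTAA 108 bases before the start. Over 27457 promoters of this length, the GC box was found in 34.9%, TATAAA in 14.3% and TGAGTAA in 2.75%. Of 9 members with a promoter in that table, 5 held the GC box (Acan, Bcan, Ncan, Vcan and Timp1), 1 TATAAA (Ncan) and 1 TGAGTAA (Timp1). The exact AP-1 letters TGACTCA, on either strand, were in none of the 9 windows and in 4.53% of all promoters. TGAGTAA differs by 1 base from their reverse complement TGAGTCA and was counted on its own. The AP-1 count thus does not cover variant sites. In the same RefSeq build each of 4 lecticans has a link protein gene as its direct protein-coding neighbor: Vcan and Hapln1 on chromosome 2, Ncan and Hapln4 on chromosome 16, Bcan and Hapln2 on chromosome 2, and Acan and Hapln3 on chromosome 1.

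The first question was how the members ranked within each region. In the BLA, brevican led at 141 ± 13.2 TPM (mean ± SD, n = 12 libraries of all groups), and its range of 118.1 to 157.0 lay above that of every other member. Neurocan followed at 47.5 ± 4.50 TPM, tenascin-R at 43.0 ± 3.86, Hapln4 at 31.6 ± 6.24 and Hapln1 at 20.1 ± 2.16. Each of these 4 overlapped in range with its neighbor in this order. Versican (8.35 ± 0.897) and Adamts4 (8.03 ± 1.70) overlapped with each other, and so did, at the bottom, Timp1 (3.13 ± 0.676) with Acan (1.51 ± 0.399) and Acan with Mmp9 (0.862 ± 0.457).

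In the DG the order began differently. Hapln4, the link protein also called Bral2, led at 308 ± 25.1 TPM (n = 11), ahead of brevican at 150 ± 23.5 and neurocan at 90.4 ± 9.16, with no overlap in range among them. Tenascin-R (37.6 ± 3.49), Hapln1 (19.1 ± 3.01) and versican (6.38 ± 0.569) came next, each apart from its neighbor. Acan (3.76 ± 0.409) and Adamts4 (3.74 ± 0.633) were level, and Timp1 (2.08 ± 0.858) overlapped in range with Adamts4 above it and with Mmp9 (1.82 ± 0.370) below it. The core lectican of the net, aggrecan, was thus among the less abundant members in both punches.

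**Figure D1:**
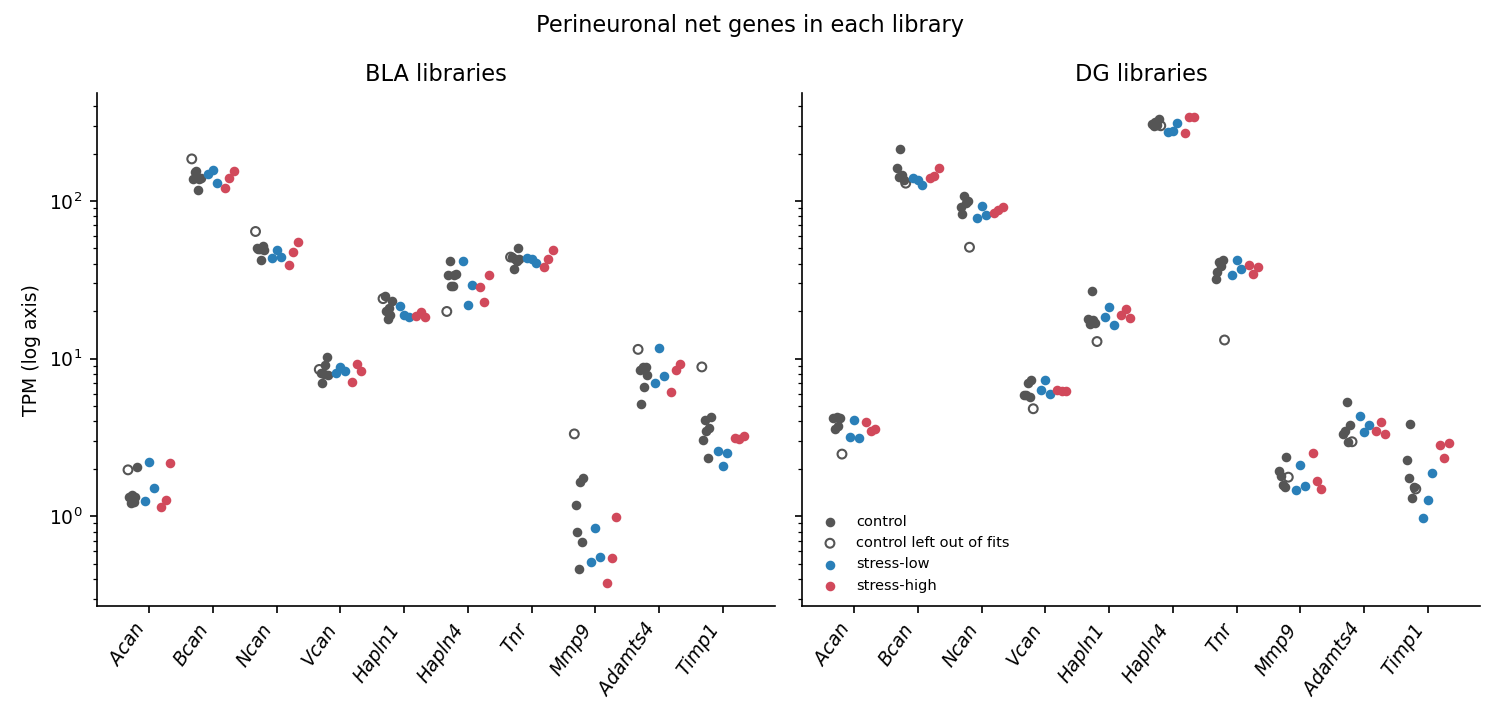
TPM (log axis) of each of the 10 members in each library, BLA left and DG right; points are libraries colored by group, and the open circle is the control left out of the fits. Brevican lies highest in the BLA (118.1 to 157.0 TPM without the open circle) and Hapln4 in the DG (271.7 to 342.3 TPM), while Mmp9 lies lowest in mean in both.

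The levels of both regions were then set side by side in the 9 animals with a library in each main set. The 2 tables were quantified separately (the length minus the effective length was 50 bases in the BLA and 261 to 274 in the DG), so the ratios are a description with no test, and region cannot be told apart from this processing. Over 13179 genes with a mean of at least 1 TPM in both, the DG was above the BLA in every animal for 42.8% of genes and below in every animal for 17.7%, and the median ratio was 1.13.

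Hapln4 had the widest ratio among the members: its TPM was 9.84 times as high in the DG (median of 9 animals, range 6.60 to 15.0), wider on the log scale than 98.8% of those genes. Acan was 2.75 times as high in the DG (1.63 to 3.49) and neurocan 1.84 times (1.64 to 2.31), both above the BLA in 9 of 9 animals. Mmp9 was higher in the DG in 8 of 9 animals, with a median ratio of 2.84. Adamts4, in contrast, had a median ratio of 0.470 and was lower in the DG in 8 of 9 animals, and Timp1 had a ratio of 0.746 and was lower in 9 of 9. The remaining members lay closer to parity, with ratios of 1.04 for brevican, 0.901 for Hapln1, 0.835 for tenascin-R and 0.731 for versican.

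**Figure D2:**
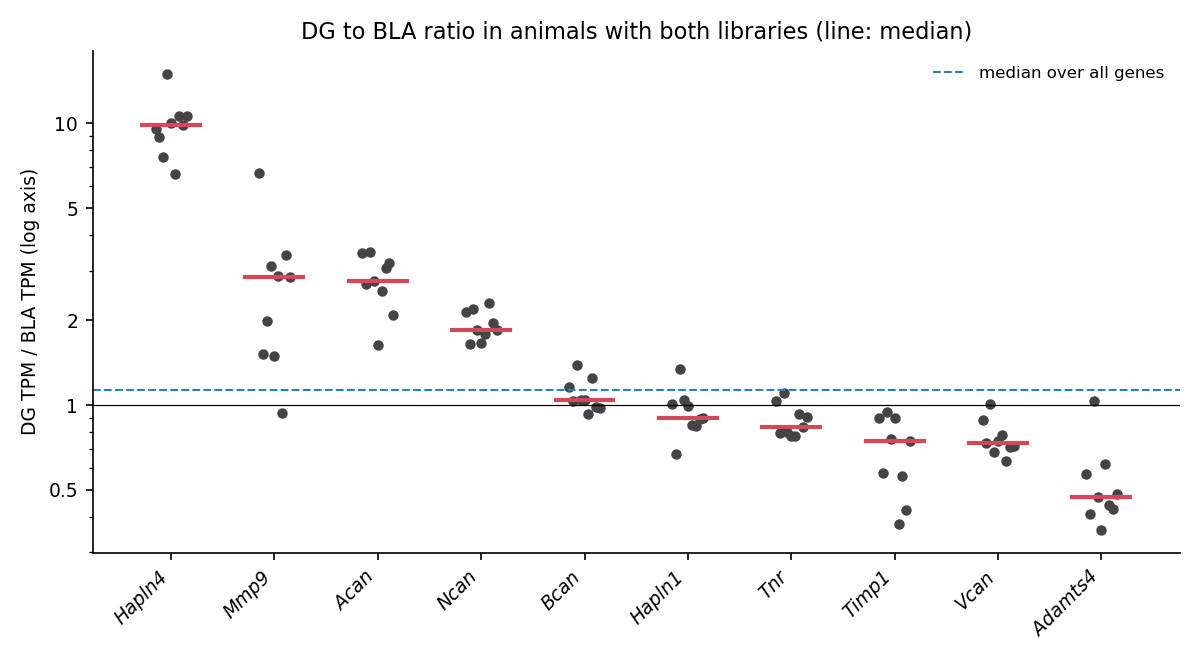
Ratio of DG TPM to BLA TPM (log axis) for each member; points are the 9 animals, red lines their medians, and the dashed line is the median over all genes (1.13). Hapln4 stands at 6.60 to 15.0, and Adamts4 has the lowest median, 0.470.

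The 2 Hapln4 models have the same length and shared their reads evenly, with 50% on each in 12 of 12 BLA libraries and in 10 of 11 DG libraries. In the DG library of stress-high animal 20 the second model held 20.6% (11451 against 2970.04 expected counts), so neither model can be read alone. For Ncan the second model held 1.05% to 7.17% of the expected counts in the BLA and 7.46% to 12.1% in the DG.

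The main question of the study was whether stress-low, stress-high and control animals differed. No member passed an adjusted p of 0.05 in any comparison, and no gene of either region did (0.0% of all genes, edgeR quasi-likelihood test with Benjamini-Hochberg adjustment). DESeq2 called 1 to 5 genes per comparison and limma on log2(TPM + 1) or log2(TPM + 0.1) called 0 to 2, none of them a member. Adjusted p of the 8 member comparisons described in full ran from 0.717 to 1.0. On simulated counts from these libraries a log2 change of 1 was recovered for 69.5% of altered genes in the BLA and for 80% in the DG. These genes were drawn at random over all levels, altered in stress-high only and tested for stress-low against stress-high. The rates do not hold for low-count members, smaller changes or other comparisons. For stress-low against stress-high, the typical SE of a log2 fold change (median over genes) was 0.13 (BLA) and 0.12 (DG), but it was 0.5 for Mmp9 in the BLA and 0.43 for Timp1 in the DG.

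Between stress-low and stress-high animals, unadjusted p was under 0.05 for 0 of 10 members in the BLA, against 1.99% of all genes, and for 1 of 10 in the DG, against 3.12%. Between control and stress-low animals it was under 0.05 for 2 of 10 members in the BLA, against 2.76%, and for 1 of 10 in the DG, against 6.91%. For control against stress-high animals no member was under it in either region, against 2.57% in the BLA and 2.19% in the DG. With both stress groups joined, 1 of 10 members was under it in each region, against 3.03% in the BLA and 4.43% in the DG. Leaving out 1 library moved these counts between 0 and 3, and the number of all genes under 0.05 moved too. Between the stress groups in the BLA that number ran from 234 (without animal 19) to 603 (without animal 30), against 303 in the main fit. The share is not given for each library, so these counts are not read as results about the members. Between the stress groups, the BLA count was 1 without animal 7 (459 of all genes). The DG count was 0 without animal 20, 22 or 33 and 2 without animal 34. From control to stress-low, the BLA count was 0 without animal 17, 30 or 35 and 1 without animal 14 or 34. Its maximum was 3. The DG count was 0 without animal 17, 22 or 34 and 2 without animal 28, 32 or 33. From control to stress-high it was 1 without animal 20, 27 or 32 (BLA) or animal 7 (DG). From control to all stress-exposed animals, the BLA count was 0 without animal 7, 19, 34 or 35 and 2 without animal 20 or 27, and the DG count was 0 without animal 7, 17, 22, 28 or 34 and 2 without animal 33. The median log2 fold change of the members lay between -0.10 and 0.08 in the 8 comparisons.

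Groups that did not overlap in TPM were as scarce. Between the stress groups this held for 1 of 10 members in the BLA (Timp1), against 5.89% of all genes, and for 2 of 10 in the DG (Bcan and Timp1), against 8.69%. Against controls no member separated from stress-low (all genes 1.39%, BLA, and 3.72%, DG), from stress-high (0.978% and 1.46%) or from all stress-exposed animals (0.0788% and 0.27%). With 1 library fewer, ranges separate more easily over all genes too. Without stress-low animal 33, 4 members separated the stress groups in the DG, against 17.8% of all genes. From control to stress-low, 2 members separated without BLA control animal 28 (2.2% of all genes), 2 without DG stress-low animal 33 (8.14%) or 34 (8.61%) and 1 without DG control animal 32 (5.81%). From control to stress-high, 1 separated without BLA animal 20 (5.93%), 1 without DG animal 7 (5.58%) or 14 (5.49%) and 2 without DG control animal 17 (2.79%).

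**Figure D3:**
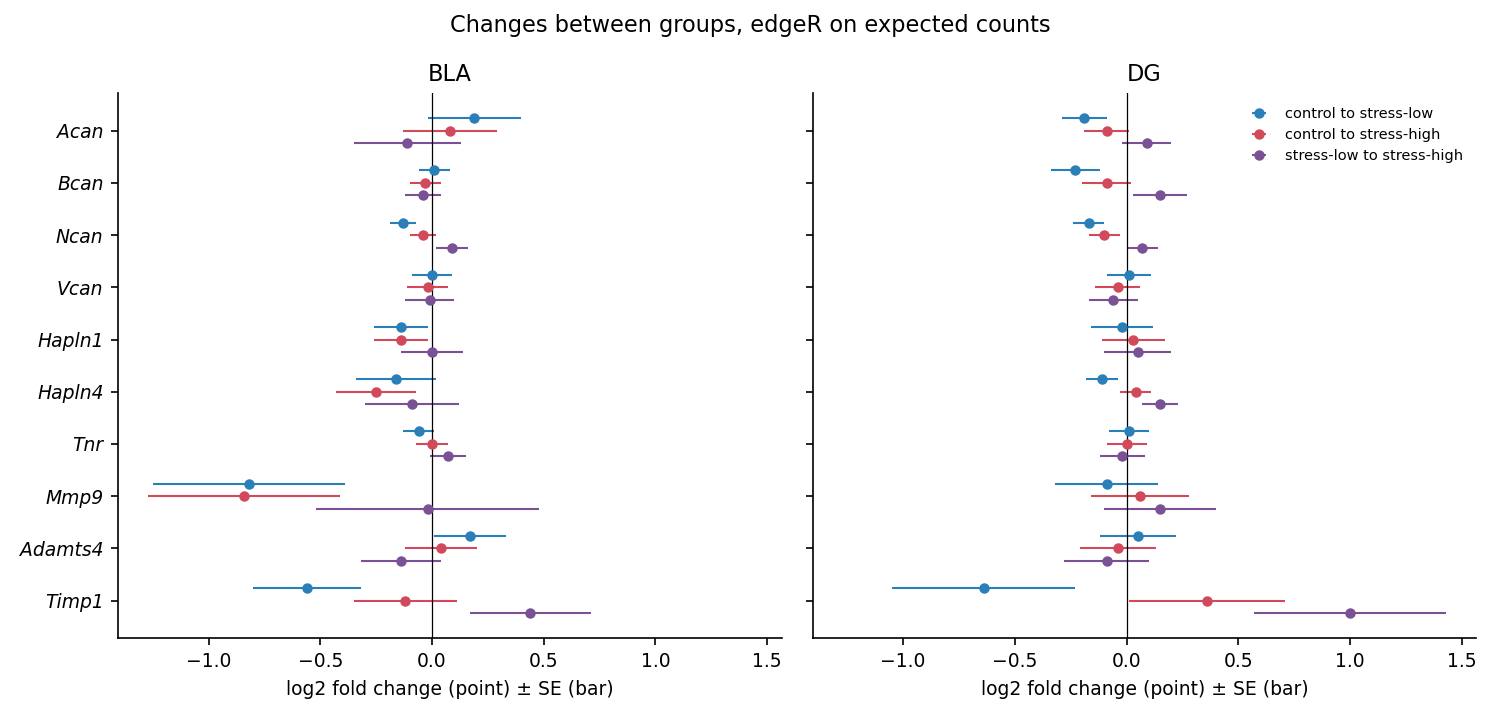
Log2 fold change (point) ± SE (bar) of each member for 3 comparisons, BLA left and DG right, from edgeR on expected counts; positive values are higher in the group named second. Most members lie near 0, and the widest bars belong to the low-count genes Timp1 and Mmp9.

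Timp1, the secreted inhibitor of matrix metalloproteinases, had its lowest group mean in stress-low animals in both regions. In the BLA the stress-low libraries held 2.09, 2.52 and 2.6 TPM and the stress-high libraries 3.08, 3.14 and 3.22, whereas 6 controls ran from 2.33 to 4.29 with a median of 3.55. Stress-low and stress-high values did not overlap, and 4 of the 6 controls lay above both. The log2 fold change from control to stress-low was -0.56 (SE 0.24, unadjusted p = 0.0327, adjusted p = 1.0), and the exact permutation test on TPM gave p = 0.0595. From stress-low to stress-high it was 0.44 (SE 0.27, unadjusted p = 0.124). These values rest on 16 to 36 expected counts per library.

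In the DG, Timp1 stood at 0.98, 1.27 and 1.88 TPM in stress-low and at 2.34, 2.82 and 2.90 TPM in stress-high animals, and 5 controls held 1.31, 1.54, 1.75, 2.28 and 3.85 TPM. The stress groups again did not overlap, and 3 of the 5 controls lay in the stress-low range, 1 between the stress groups and 1 above both. The log2 fold change from stress-low to stress-high was 1.0 (SE 0.43, unadjusted p = 0.0379, adjusted p = 0.999), from only 5 to 18 expected counts per library. The exact permutation test on TPM gave p = 0.1, the smallest that 3 against 3 libraries can give. With animal number above 20 as a covariate the log2 fold change was 0.12, and the unadjusted p reached 0.842. Each stress group lies on 1 side of this split, so the term is estimated from 3 against 2 controls alone and cannot separate number from group.

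The unadjusted p of Timp1 rested on single libraries. In the BLA, control against stress-low, it was over 0.05 without animal 17, 30 or 35 (up to 0.147). In the DG, stress-low against stress-high, it was over 0.05 without animal 7, 20, 22 or 33 (up to 0.137). Among animals numbered above 20, BLA controls averaged 3.43 TPM (n = 4) and stress-low animals 2.40 TPM (n = 3). Dcn, a matrix proteoglycan of meningeal fibroblasts, had a log2 fold change of 0.89 (SE 0.28, unadjusted p = 0.00755, adjusted p = 0.999) from stress-low to stress-high in the DG. It was the only gene of its list with an unadjusted p under 0.05 there, and of 5 tested genes of the leptomeninges and choroid plexus 2 had a positive and 3 a negative log2 fold change, with a median log2 fold change of -0.30. The summed TPM of 7 leptomeningeal and choroid plexus genes, Dcn among them, ran from 3.74 to 10.6 in stress-low and from 5.30 to 7.89 in stress-high DG libraries, with Ttr and Kl under 0.1 TPM. Across libraries, Timp1 and this sum had r = 0.156 in the BLA (permutation p = 0.628, adjusted p = 0.854, 12 libraries). In the DG they had r = 0.45 (permutation p = 0.165, adjusted p = 0.367, 11 libraries). The part of these cells in the group differences of Timp1 was not tested.

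Neurocan, a lectican secreted by neurons and astrocytes, was lower in stress-low than in control animals by a small margin in both regions. In the DG the stress-low libraries held 77.51, 81.19 and 93.31 TPM, the stress-high libraries 83.80, 87.60 and 91.70 TPM, and the 5 controls 82.40, 91.83, 96.87, 100.5 and 108.2 TPM. The ranges overlapped, with 2 controls lying among the stress-exposed values. The log2 fold change from control to stress-low was -0.17 (SE 0.07, unadjusted p = 0.0244, adjusted p = 0.717), and from control to all stress-exposed animals it was -0.14 (SE 0.06, unadjusted p = 0.0266, adjusted p = 0.931). Exact permutation tests on TPM gave p = 0.161 and p = 0.0693.

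In the BLA neurocan stood at 43.19, 44.24 and 48.75 TPM in stress-low libraries, at 39.18, 47.48 and 55.14 TPM in stress-high libraries and at 42.00 to 51.46 TPM in the 6 controls (median 49.5). All groups overlapped, and the stress-high values were the most spread. The log2 fold change from control to stress-low was -0.13 (SE 0.06, unadjusted p = 0.0429, adjusted p = 1.0), and the exact permutation test gave p = 0.25. The unadjusted p was over 0.05 when any of animals 14, 17, 22, 30, 32, 34 and 35 was left out (up to 0.148). In the DG the unadjusted p of the stress-low comparison was over 0.05 without animal 17, 22 or 34 (up to 0.134), and with the left-out control of animal 35 included, whose neurocan was 50.9 TPM, it was over 0.05 as well. For all stress-exposed animals in the DG it was over 0.05 without animal 7, 17, 22, 28, 32 or 34 (up to 0.0897). Among animals numbered above 20, neurocan averaged 48.0 TPM in 4 BLA controls and 45.4 in 3 stress-low animals, and 98.7 TPM in 2 DG controls and 84.0 in 3 stress-low animals. Summed TPM of 6 astrocyte genes ran from 962 to 1140 in BLA controls and 898 to 1100 in stress-low libraries, and from 1180 to 1810 and 1180 to 1440 in the DG. From control to stress-low, 5 of 6 astrocyte genes had a lower mean level in the fit in each region. Of all genes, 50.9% (BLA) and 51.1% (DG) had a negative log2 fold change. The median over the 6 astrocyte genes stood at -0.01 (BLA), hardly a shift, and at -0.09 (DG). From control to all stress-exposed animals in the DG, 6 of 6 astrocyte genes were lower (median -0.08), against 51.3% of all genes. Oligodendrocyte genes went the other way, with 7 of 7 higher in each of these comparisons. The astrocyte glutamate transporter Slc1a2 had a log2 fold change of -0.25 (SE 0.07, unadjusted p = 0.00187, adjusted p = 1.0) from control to stress-low in the BLA, and Gfap one of -0.29 (SE 0.11, unadjusted p = 0.0235, adjusted p = 0.931) from control to all stress-exposed animals in the DG. CAMK2A, a kinase of excitatory neurons, had one of -0.19 (unadjusted p = 0.0364) in the BLA and of -0.16 (unadjusted p = 0.0293) in the DG from control to stress-low. Their part in the neurocan values was not tested.

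Mmp9, the gelatinase that cleaves matrix and is induced by neuronal activity, was measured at the bottom of the range. In the BLA the 6 controls ran from 0.46 to 1.76 TPM (median 0.990), the stress-low libraries held 0.51, 0.55 and 0.84 TPM, and the stress-high libraries 0.38, 0.54 and 0.99 TPM. Of the 6 stress-exposed libraries, 5 lay in the lower part of the control range and animal 7, at 0.38 TPM, lay below it. The log2 fold change from control to all stress-exposed animals was -0.83 (SE 0.34, unadjusted p = 0.0285, adjusted p = 1.0), and the exact permutation test on TPM gave p = 0.0909. The unadjusted p was over 0.05 without animal 7, 19, 22, 28, 34 or 35 (up to 0.0868). Controls and stress-exposed animals averaged 0.990 and 0.637 TPM among animals numbered up to 20 (n = 2 and 3), and 1.14 and 0.633 TPM among those above 20 (n = 4 and 3). In the DG, Mmp9 averaged 1.84 ± 0.331 TPM in controls, 1.71 ± 0.356 in stress-low and 1.90 ± 0.558 in stress-high animals.

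**Figure D4:**
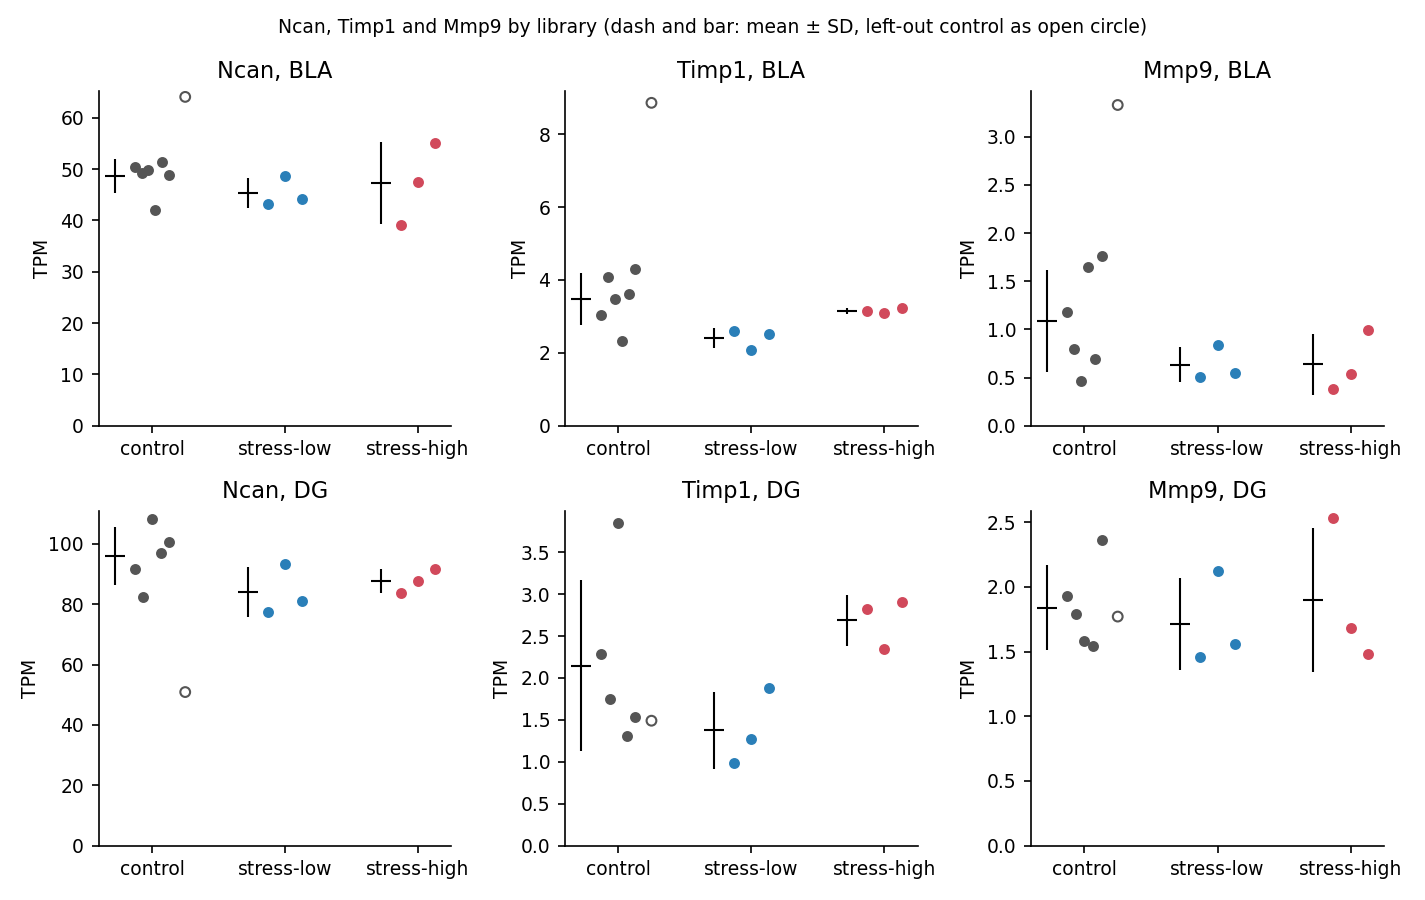
TPM of Ncan, Timp1 and Mmp9 by group, BLA above and DG below; points are libraries, dash and bar are mean ± SD, and the open circle is the control left out of the fits. The stress-low and stress-high points of Timp1 do not overlap in either region, and the DG controls run from 1.31 to 3.85 TPM.

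Brevican, the most abundant lectican here, was 126.9, 136.4 and 139.0 TPM in stress-low and 139.5, 144.5 and 161.0 TPM in stress-high DG libraries. The groups were separated by a gap far smaller than the spread within either, and controls ran from 135.0 to 213.5 TPM. In the BLA it was 140 ± 13.4 TPM in controls, 145 ± 14.0 in stress-low and 138 ± 16.7 in stress-high animals. The DG log2 fold change from stress-low to stress-high was 0.15 (SE 0.12, unadjusted p = 0.248, adjusted p = 0.999), with the sign turning to -0.16 when animal number above 20 was a covariate, a term estimated from the controls alone.

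The members not yet described by group differed little. Aggrecan in the BLA was 1.42 ± 0.315 TPM in controls, 1.66 ± 0.502 in stress-low and 1.53 ± 0.563 in stress-high animals, and in the DG it was 4.0 ± 0.318, 3.46 ± 0.528 and 3.67 ± 0.259. Hapln4 in the BLA was 33.6 ± 4.72, 30.9 ± 9.98 and 28.4 ± 5.49 TPM in the same order, and in the DG 313 ± 12.4, 288 ± 20.4 and 318 ± 40.0. Adamts4, an aggrecanase, was 7.65 ± 1.48, 8.86 ± 2.53 and 7.93 ± 1.60 TPM in the BLA. Its DG levels were 3.77 ± 0.903, 3.84 ± 0.462 and 3.59 ± 0.329 TPM. Hapln1, tenascin-R and versican had group means of 18.9 to 21.0, 42.4 to 43.3 and 8.23 to 8.44 TPM in the BLA and of 18.6 to 19.2, 37.2 to 37.8 and 6.26 to 6.54 TPM in the DG. None of these 6 had an unadjusted p under 0.05 or separated groups in any comparison.

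Whether the regions differed in their response was tested in 1 fit of both, with no term for the animal, although 9 animals gave a library to each region. In that fit no member had an adjusted or unadjusted p under 0.05 for the region difference of any comparison, where the unadjusted share of all genes was 2.0% for stress-low against stress-high, 3.22% for control against stress-low, 1.83% for control against stress-high and 2.67% for control against all stress-exposed animals. The smallest member p was that of Mmp9 for control against stress-exposed animals, with a difference of 0.81 on the log2 scale (DG minus BLA, SE 0.40, unadjusted p = 0.057, adjusted p = 1.0). With the animal as a block it was 0.83 (SE 0.45, unadjusted p = 0.0918), and 1 member then had an unadjusted p under 0.05, Bcan for control against stress-low (-0.25, SE 0.10, unadjusted p = 0.0339, adjusted p = 1.0), against 2.87% of all genes. With all mapped libraries Mmp9 was under it for control against stress-high (1.18, SE 0.55, unadjusted p = 0.0438) and for control against all stress-exposed animals (1.08, SE 0.45, unadjusted p = 0.0234), with an adjusted p of 1.0 in both.

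Genes around the net were read from lists of its other parts. Among 7 other link protein and hyaluronan genes (Hapln2, Hapln3, hyaluronan synthases and hyaluronidases), all tested in the BLA and 6 in the DG, where Has2 was too low, none of those tested had an unadjusted p under 0.05. Of 14 tested genes of chondroitin sulfate synthesis, 1 had in the BLA: Csgalnact2, which starts the chondroitin chain, at 5.48 ± 0.298 TPM in controls and 4.30 ± 0.181 in the stress-high group, a log2 fold change of -0.35 (SE 0.09, unadjusted p = 0.00241, adjusted p = 1.0). No gene of this list had in the DG.

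Of 9 other matrix proteins, at most 1 in each direction had an unadjusted p under 0.05 in a comparison. Ptprz1, the receptor phosphatase whose secreted form is phosphacan, was 66.4 ± 3.69 TPM in BLA controls and 59.5 ± 5.24 in stress-low animals (log2 fold change -0.20, SE 0.05, unadjusted p = 0.00208, adjusted p = 1.0). Tenascin-C was 1.86 ± 0.364 TPM in stress-low and 1.24 ± 0.332 in stress-high BLA libraries (log2 fold change -0.55, SE 0.23, unadjusted p = 0.0297, adjusted p = 1.0), and in the DG 1.46 ± 0.425 in controls and 0.943 ± 0.426 in stress-high animals (-0.60, SE 0.27, unadjusted p = 0.0407). In that same DG comparison the synaptic pentraxin Nptx2 was higher, at 61.0 ± 8.85 TPM in controls and 72.8 ± 13.1 in stress-high animals (0.28, SE 0.12, unadjusted p = 0.0376). Of 17 tested matrix proteases and inhibitors beside the members, the membrane protease Mmp14 was 4.92 ± 0.902 TPM in DG controls and 3.27 ± 0.327 in the stress-high group, a log2 fold change of -0.56 (SE 0.19, unadjusted p = 0.01, adjusted p = 1.0), and Mmp17 was 46.5 ± 2.08 and 51.9 ± 2.6 TPM in stress-low and stress-high DG libraries (0.16, SE 0.07, unadjusted p = 0.0361). Of 8 tested matrix receptors, Rtn4rl1, a Nogo receptor family member, was 37.5 ± 5.14 TPM in BLA controls and 32.7 ± 2.01 in stress-low animals, and 87.1 ± 5.92 and 76.2 ± 6.95 in the DG (log2 fold changes -0.23 and -0.18, unadjusted p = 0.0286 and 0.0273). No gene of these lists passed the adjusted threshold.

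Summed levels of genes listed for cells that make or carry the matrix also varied between punches. Summed TPM of 7 parvalbumin interneuron genes (Pvalb, Kcnc1, Kcns3, Syt2, Gad1, Gad2 and Erbb4) ran from 365 to 461 in BLA controls, 356 to 571 in stress-low and 392 to 540 in stress-high libraries. The sum for 7 oligodendrocyte genes ran from 2410 to 3290, 2810 to 4380 and 2890 to 3380. Summed TPM of 4 central amygdala and striatum genes ran from 60.4 to 165 in controls, 78.5 to 161 in stress-low and 73.6 to 80.2 in stress-high BLA libraries. In the DG, in the same order, the parvalbumin interneuron sum ran from 328 to 419, 364 to 378 and 332 to 387. The oligodendrocyte sum there ran from 1570 to 2130, 1960 to 2090 and 1760 to 2110. The central amygdala and striatum sum there ran from 96.6 to 124, 95.0 to 104 and 100 to 105.

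Relations across libraries were computed for 12 pairs of a member with a marker sum or another member. In the BLA, Acan followed the parvalbumin interneuron sum (r = 0.863, permutation p = 0.00123, adjusted p = 0.0148, rho = 0.678, permutation p = 0.0185, adjusted p = 0.208, 12 libraries), with r = 0.9 after centring on group means and r = 0.887 and 0.886 among animals numbered up to 20 (5 libraries) and above 20 (7 libraries). Without the 2 libraries farthest from the median sum r was 0.578. Gad1 (mean 176 TPM) and Gad2 (115 TPM), which other GABA neurons also express, made up most of this sum, and Pvalb averaged 35.0 TPM. The sum is thus not a measure of parvalbumin cells alone, and the relation of Acan with Pvalb by itself was not tested. The highest Acan levels stood apart: 3 libraries, 1 of each group (control animal 35, stress-low animal 30 and stress-high animal 20), held 2.05 to 2.22 TPM with a sum of 461 to 571, and the other 9 held 1.15 to 1.51 TPM with a sum of 356 to 452. Among those 9, which were picked by their Acan values after these were seen and span less of the range, r was 0.105 (rho = 0.233). Central amygdala and striatum genes summed to 165 and 161 TPM in animals 35 and 30 but to 73.6 in animal 20, against 60.4 to 86.4 in the other 9, and the part of these cells was not tested. Adamts4, known to be expressed by oligodendrocytes, followed the oligodendrocyte sum in the BLA (r = 0.797, permutation p = 0.00316, adjusted p = 0.019, rho = 0.592, permutation p = 0.047, adjusted p = 0.208, 12 libraries), with r = 0.792 after centring on group means and r = 0.894 and 0.767 among animals numbered up to 20 (5 libraries) and above 20 (7 libraries). Without the 2 libraries farthest from the median sum r was 0.329, over a narrower range of the sum, so that the pooled value rests largely on those libraries. In the DG the relations of Acan and Adamts4 had r = 0.153 (permutation p = 0.654, adjusted p = 0.854) and r = 0.61 (permutation p = 0.0511, adjusted p = 0.204) over 11 libraries. The remaining pairs were Timp1 with the leptomeninges and choroid plexus sum, Mmp9 with an endothelial and mural sum, Hapln1 with Vcan and Hapln4 with Ncan. Over both regions these pairs had adjusted p of 0.243 to 0.87 for r. All libraries share the scaling to a fixed TPM sum.

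**Figure D5:**
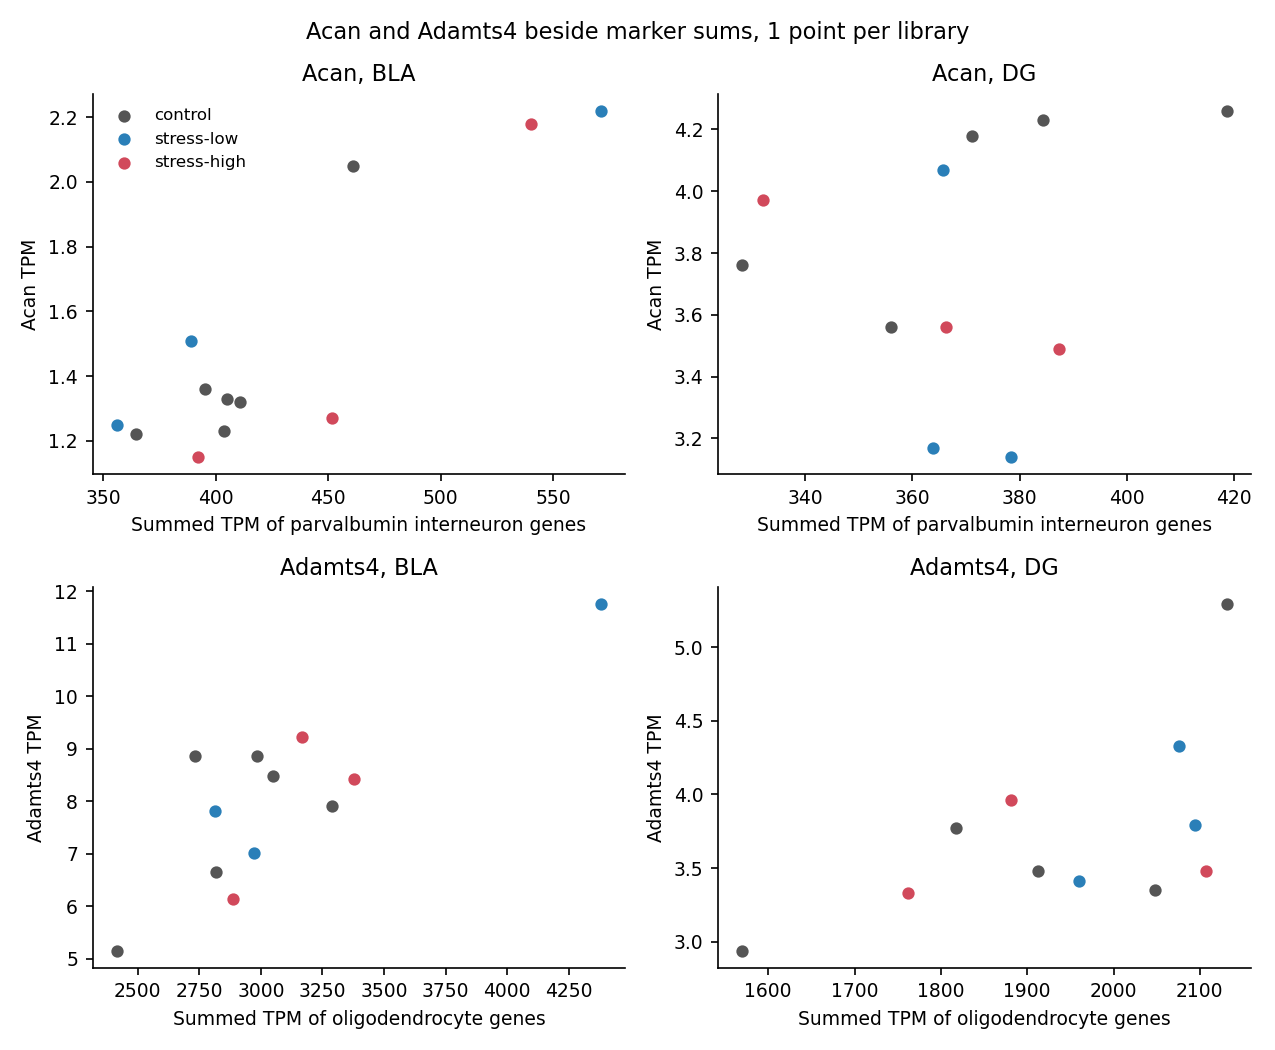
TPM of Acan beside the summed TPM of 7 genes listed for parvalbumin interneurons (above) and of Adamts4 beside that of 7 oligodendrocyte genes (below), BLA left and DG right, with 1 point per library colored by group. Gad1 and Gad2 make up most of the upper sum in the BLA. In the BLA 3 libraries, 1 of each group, stand apart at 2.05 to 2.22 TPM of Acan, and the highest Adamts4 value (11.75 TPM) has the highest oligodendrocyte sum.

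The genes whose log2(TPM + 1) followed Acan most closely across the BLA libraries were Flna (r = 0.959), Pard3 (0.955) and Gad1 (0.938), of 14419 genes with a mean of at least 1 TPM and over 12 libraries. In the DG they were Pard6b (0.932), Elmsan1 (0.899) and Foxred2 (0.893), of 13563 genes over 11 libraries. For Adamts4 they were Fmnl2 (0.958), Zmym4 (0.951) and Map4k4 (0.948) in the BLA, and TRIOBP (0.908), Fa2h (0.899), an enzyme of myelin lipid synthesis, and Rapgef4 (0.887) in the DG. Gad1 is itself among the parvalbumin interneuron genes used above, and the BLA values for Acan include the 3 libraries that stand apart.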

How the data were processed

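Bulk poly-A RNA was measured in 25 libraries (13 BLA, 12 DG). The authors aligned reads to Rn5 with STAR 2.6.0a and quantified Ensembl 75 genes with RSEM 1.3.1. The expected count deposited per gene is an estimated count that need not be whole. The deposited TPM, effective length and other values stand in the same long tables, and the deposited FPKM was not used.

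The members, lists and rules were chosen with earlier results of these data known. The summing of the 2 models of Ncan and Hapln4 was chosen after seeing the data. Rounded expected counts went into the quasi-likelihood test of edgeR 4.0.16 (R 4.3.3, TMM factors, 3 groups per region, low counts removed by filterByExpr at a minimum of 10, Benjamini-Hochberg adjustment over all genes, threshold 0.05). Region differences were fitted in 1 model over 15451 genes. The study's own method, EBSeq, was not used here. TPM differences were tested by exact two-sided permutation, and correlations, on log2(TPM + 1), with 100000 permutations, both in Python 3.11.15 with numpy 2.4.6, and scipy 1.17.1 gave ranks and adjusted values. Per region, the control farthest from the median on the first principal component was left out.

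A member is given in full where its unadjusted p was under 0.05 or its groups did not overlap in TPM, and of each other list up to 3 genes with the smallest unadjusted p under 0.05 could be named. Alternatives were DESeq2 1.42.0, limma 3.58.1 on log2(TPM + 1) or log2(TPM + 0.1), RLE size factors, other sets of libraries, a replicate block and animal number as a covariate. The animal number term is estimated from controls alone, since each stress group lies on 1 side of the split. All 48 pairs of libraries within groups differed by more than counting noise (chi-square of 4.49 to 49.8 per gene). Each library of a region comes from a different animal, so that the spread includes differences between animals. Differences of punch, RNA extraction and library preparation cannot be told apart from these.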

Additional observations from a re-analysis of the deposited data

Results flagged for a closer look

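Among 20 sets of control libraries (10 members, 2 regions, all mapped controls), 5 had a highest or lowest library with a gap wider than Dixon's 95% limit. The sets of a region share their libraries. BLA animal 2 and DG animal 35 were also already picked as farthest on the first principal component, so this number cannot be set against chance. In the BLA animal 2 was highest for Ncan (64.07 TPM, next 51.46) and Timp1 (8.86 TPM, next 4.29). In the DG animal 17 was highest for Hapln1 (26.9 TPM, next 17.87) and Adamts4 (5.29 TPM, next 3.77), and animal 35 was lowest for Tnr (13.13 TPM, next 31.97).

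The BLA control of animal 2, which the main fits do not use, lay above each of the 6 other controls for 5 members: Bcan (185 TPM against at most 155.3), Ncan (64.07 against 51.46), Mmp9 (3.33 against 1.76), Adamts4 (11.45 against 8.86) and Timp1 (8.86 against 4.29). For Hapln4 it lay below all 6 (19.92 TPM against at least 28.78). In the same library the summed TPM of leptomeningeal and choroid plexus genes was 72.2, against 9.87 to 17.4 in the other controls, and that of central amygdala and striatum genes was 324, against 60.4 to 165. Their part in these values was not tested.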

How the results depend on the processing

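The count of members at an adjusted p under 0.05 was 0 for every comparison and region difference under all alternatives (171 recomputed counts). The counts at an unadjusted p under 0.05 moved easily, and so did the number of all genes under it. For stress-low against stress-high in the BLA that number ran from 243 with DESeq2 to 575 with limma on all genes, against 303 in the main fit. Limma on all genes had no filter on low levels and so tested more genes than the main fit. The counts that follow stand without the share of all genes and are not read as results about the members. For control against stress-low in the BLA (2 members) the count was 1 with DESeq2, without the low-count filter, with limma in its 3 forms and with gene models not summed (added after seeing the data), and 0 without the BLA library of animal 35, with the replicate block and with animal number above 20 as covariate. For control against all stress-exposed animals in the BLA (1 member) it was 3 with all mapped libraries and 0 without the library of animal 35, with the replicate block and with limma in its 3 forms. For control against stress-high it was 1 with all mapped libraries in the BLA and 1 with gene models not summed in the DG (0 in the main fits). For stress-low against stress-high in the DG (1 member) it was 2 with only the groups compared and with gene models not summed, and 0 with DESeq2, the replicate block and the animal number covariate. For control against stress-low in the DG (1 member) it was 2 with DESeq2 and without the low-count filter, and 0 with all mapped libraries and with limma on all genes, and the last 2 gave 0 also for control against all stress-exposed animals in the DG (1 member).

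Leaving out 1 library gave 0 to 3 members for control against stress-low in the BLA, 0 to 2 for the same comparison in the DG, for stress-low against stress-high in the DG and for control against all stress-exposed animals in each region, and 0 to 1 for the others. Members whose TPM ranges did not overlap then numbered 2 to 4 for stress-low against stress-high in the DG (4 without stress-low animal 33), 0 to 2 for control against stress-low in each region and for control against stress-high in the DG, and 0 to 1 for control against stress-high in the BLA. The share of all genes was then 15.3% to 22.7% for the stress groups in the DG. For control against stress-low it was 1.9% to 5.74% (BLA) and 4.78% to 11.9% (DG). For control against stress-high it was 1.43% to 5.93% (BLA) and 2.45% to 6.17% (DG). Of 157 recomputed fold changes of the members described in full, 156 kept their direction, and that of Bcan between the stress groups in the DG turned from 0.15 to -0.16 with animal number above 20 as covariate. The replicate numbers in the titles do not pair the libraries: same-numbered libraries correlated in their deviations by -0.13 to 0.073 in the BLA and -0.19 to 0.11 in the DG. Depth limits Timp1 (5 to 36 expected counts in the main libraries) and Mmp9 most. The cause of these shifts was not tested.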
